A study of Mus musculus with 12 samples.

Results

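The LIF, JAK and STAT3 pathway was described in mouse embryonic stem cells (ESCs) through 10 genes, chosen by symbol from the 50978 rows of a table of RNA levels. They were the receptor genes *Lifr* and *Il6st*, the kinase genes *Jak1*, *Jak2* and *Jak3*, the transcription factor gene *Stat3*, and *Socs3*, *Bcl3*, *Pim1* and *Pim3*, which are known targets of the pathway. Levels were measured by poly(A) RNA sequencing in 3 lines with 2 libraries each, 6 libraries in all. Parental ESCs were E14 wild-type cells. ESC + H/F-PRAMEL7 WT (PRAMEL7 WT ESCs) expressed HA/FLAG-tagged PRAMEL7, a protein that associates with the ubiquitin ligase scaffold CUL2, from a transgene in the *Rosa26* locus under the ubiquitous CAG promoter. ESC + H/F-PRAMEL7 ΔN (PRAMEL7 ΔN ESCs) carried the same design of transgene with an N-terminal deletion, of 50 amino acids according to its label (the study's text gives another length), that takes away the part through which PRAMEL7 meets CUL2. All 3 lines grew in medium with 15% serum and LIF, so that LIF was supplied to every culture. The derived lines were isolated from single cells, and an effect of the transgene and a property of the isolated clone cannot be told apart.

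LIF is the cytokine that keeps mouse ESCs self-renewing in serum. It brings together LIFR and gp130, the product of *Il6st*, whose bound JAK kinases then phosphorylate STAT3, and STAT3 dimers enter the nucleus and activate genes. One of these genes, *Socs3*, encodes an inhibitor that binds gp130 and shuts the kinases off, which closes a feedback loop.

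The libraries held between 18249435 and 19850295 reads on genes. Levels are given as CPM, reads per 1000000 reads on genes, recovered from the deposited values. *Pramel7* was at 0.26 and 0.22 CPM in parental ESCs, 51.2 and 46.2 in PRAMEL7 WT ESCs, and 398 and 431 in PRAMEL7 ΔN ESCs. The derived lines therefore differed from each other not only in the deletion but also in the transgene's RNA, which was 8.50-fold higher in PRAMEL7 ΔN ESCs. All 7 ESC markers were detected in every library, with a summed level of 3139 to 3588 CPM. Of them, *Utf1* was higher (log2 fold change 0.73, limma adjusted p = 0.0155) and *Nanog* (−0.36, 0.0178) and *Zfp42* (−0.39, 0.0184) were lower in PRAMEL7 WT ESCs than in parental ESCs, and *Dppa4* was higher in PRAMEL7 ΔN ESCs (0.32, 0.0287). Of 8 blood cell markers 7 were in the table, with a summed level of 2.46 to 4.54 CPM and *Lyz2* and *Cd48* at 0 reads throughout. The 7 fibroblast markers summed to 43.6 and 56.8 CPM in parental ESCs, 22.1 and 23.3 in PRAMEL7 WT ESCs, and 43.8 and 38.9 in PRAMEL7 ΔN ESCs, with *Dcn* and *Lum* at 0 reads in all 6 libraries. Most of that sum was *Thy1*, at 39.6 and 52.4 CPM in parental ESCs, which was lower in PRAMEL7 WT ESCs (−1.08, adjusted p = 0.00147). The 7 trophectoderm markers summed to 67.8 to 105 CPM in parental ESCs, 74.3 to 80.1 in PRAMEL7 WT ESCs and 42.4 to 44.1 in PRAMEL7 ΔN ESCs. Most of this sum was *Tfap2c*, which was lower in PRAMEL7 ΔN ESCs (−1.26, adjusted p = 0.00143), whereas *Eomes* was higher there (0.96, 0.00513). The 7 primitive endoderm markers summed to 9.44 and 6.95 CPM in parental ESCs, 11.95 and 10.96 in PRAMEL7 WT ESCs, and 10.1 and 9.24 in PRAMEL7 ΔN ESCs. *Gata4* was higher and *Pdgfra* lower in both derived lines, and *Sox7* was higher in PRAMEL7 WT ESCs (0.58, adjusted p = 0.0407). The part of these markers in the results was not tested. The parental libraries stood furthest apart, with a median absolute log2 difference between them of 0.19 over the genes, against 0.10 for PRAMEL7 WT ESCs and 0.12 for PRAMEL7 ΔN ESCs. In this kind of sample, fewer cells that express a gene and less RNA per cell cannot be told apart.

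The DNA upstream of 3 members is shown, because these members carried changes described below and begin in differently composed sequence. Each is the part of the 250 bases before the RefSeq start that lies outside the annotated transcripts, printed 5′ to 3′ on the gene's strand in mouse build GRCm38. They are chr13:112463820-112464069 (plus strand) for *Il6st*, chr8:71676133-71676295 (plus strand) for *Jak3* and chr7:19822771-19823005 (minus strand) for *Bcl3*.
Il6st: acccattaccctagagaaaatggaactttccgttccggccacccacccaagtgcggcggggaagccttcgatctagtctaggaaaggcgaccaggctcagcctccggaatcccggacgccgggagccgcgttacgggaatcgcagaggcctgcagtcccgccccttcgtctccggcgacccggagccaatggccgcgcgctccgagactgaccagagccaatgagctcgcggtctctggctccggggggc
Jak3: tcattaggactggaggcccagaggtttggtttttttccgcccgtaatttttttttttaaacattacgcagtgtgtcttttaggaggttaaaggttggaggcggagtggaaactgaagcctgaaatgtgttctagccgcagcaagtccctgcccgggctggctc
Bcl3: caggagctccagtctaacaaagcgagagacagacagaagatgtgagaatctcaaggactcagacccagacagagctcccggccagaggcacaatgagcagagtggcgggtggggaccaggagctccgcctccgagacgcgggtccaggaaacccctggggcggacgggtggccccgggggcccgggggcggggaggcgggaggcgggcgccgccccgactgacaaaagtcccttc

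Over the full 250 bases, 66.0% of the *Il6st* window, 52.4% of the *Jak3* window and 67.6% of the *Bcl3* window was G or C, where the median of 32851 RefSeq starts was 52.4%. The letters TTCNNNGAA, the core to which STAT dimers bind and which reads the same on both strands, were absent from these 3 windows. Over the 12 RefSeq starts of the 10 members they were found in 1, that of *Socs3*, as against 7.02% of all starts. The match, with the motif in capitals, lies at chr11:117969502-117969530 on the minus strand, and its first motif base is 154 bases before the RefSeq start. It lies inside the annotated span of *Socs3* (chr11:117966079-117970047), which begins further upstream, and this stretch was not limited to bases outside annotated transcripts.
Socs3: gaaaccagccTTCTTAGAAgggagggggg
A match of letters is a description of the window and no measurement of binding.

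Per kilobase of exon, the *Pim3* and *Socs3* transcripts were the most abundant of the 10 and those of *Jak2* the least. *Pim3* averaged 93.1 CPM per exon kb over the 6 libraries and *Socs3* 71.3, with ranges that overlapped. *Stat3* followed at 25.4 and was separate from both of its neighbours in the order, with every library below the lowest of *Socs3* and above the highest of *Pim1*. It was not separate from *Bcl3*, which in the PRAMEL7 WT libraries was at 26.9 and 25.5, above *Stat3* at 23.7 and 23.8. *Pim1* (20.3), *Bcl3* (19.7), *Il6st* (13.7), *Lifr* (9.47), *Jak1* (9.46) each had a range that overlapped that of the next in the order, down to *Jak3* (5.79 CPM per exon kb). *Jak2*, at 1.02 CPM per exon kb, was below *Jak3* in every library.

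**Figure D1:**
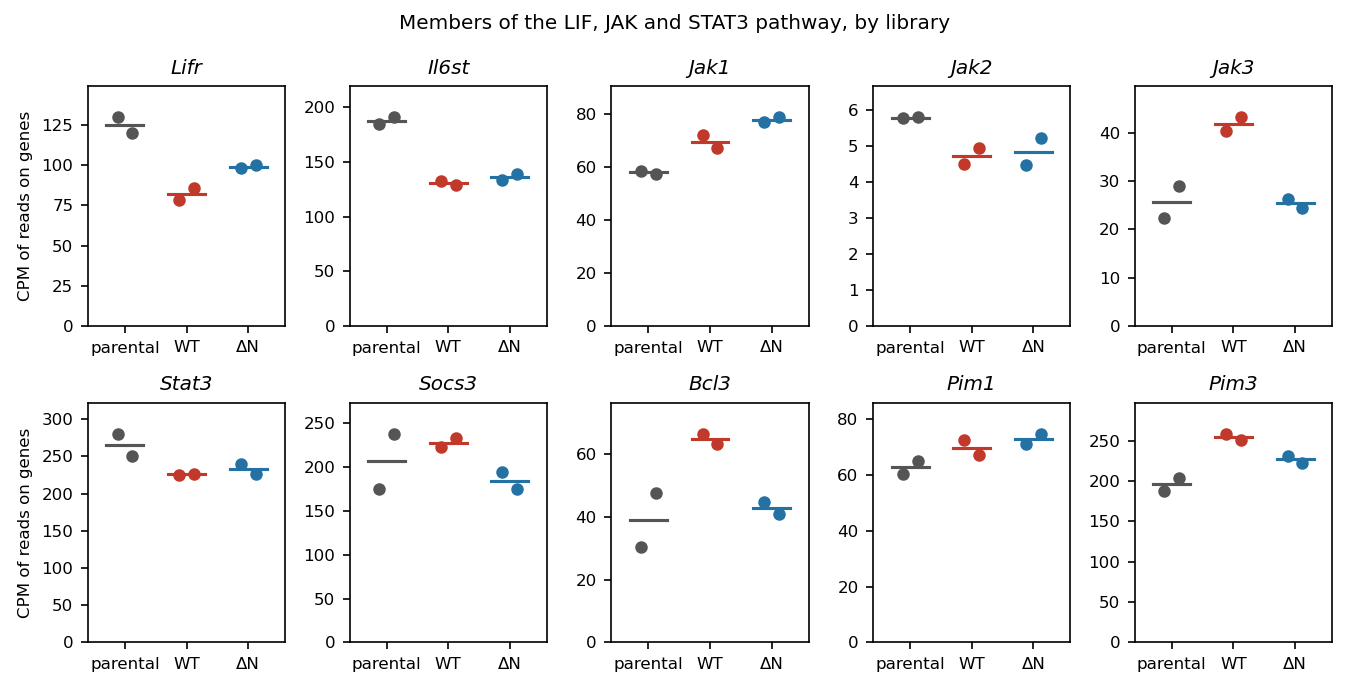
RNA level of the 10 members in CPM (reads per 1000000 reads on genes, linear axes from 0, one scale per panel) in parental ESCs (grey), PRAMEL7 WT ESCs (red) and PRAMEL7 ΔN ESCs (blue). Each point is 1 library and each line the mean of 2. *Jak3* and *Bcl3* are higher in both red libraries than in the other 4, *Lifr* and *Il6st* are highest in grey, and the grey points of *Socs3* and *Bcl3* lie far apart.

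To determine whether PRAMEL7 altered the pathway, each derived line was compared with parental ESCs and the derived lines with each other. All 10 members passed the filter on low values, and a call is a limma adjusted p under 0.05 over the 12914 genes tested. In PRAMEL7 WT ESCs, 3 members were higher than in parental ESCs (*Jak3*, *Bcl3* and *Pim3*) and 2 lower (*Lifr* and *Il6st*), while 8.71% of all genes tested were called higher and 16.3% lower. In PRAMEL7 ΔN ESCs, 1 member was higher (*Jak1*) and 2 lower (*Lifr* and *Il6st*), beside 6.25% and 13.6% of all genes. Between the derived lines, 2 members were higher in PRAMEL7 WT ESCs (*Jak3* and *Bcl3*) and 0 lower, beside 10.9% and 9.44% of all genes. At an unadjusted limma p under 0.05, 1 member (*Lifr*) was lower there, and voom on whole reads also called 0. The first 2 comparisons share the parental libraries, so that their agreement on the receptors is not independent. Leaving out 1 library of a compared derived line lowered the number of all genes called, and leaving out a parental library raised it. Calls lost or gained that way, as given below, are therefore not particular to the members. Scaling the libraries by median ratios turned the split of all genes called higher and lower from 1125 and 2109 to 1673 and 1495 in PRAMEL7 WT ESCs, and from 807 and 1759 to 1122 and 1368 in PRAMEL7 ΔN ESCs. Under this scaling the members called in PRAMEL7 WT ESCs included *Jak1* as well (log2 fold change 0.35, adjusted p = 0.0243), and in PRAMEL7 ΔN ESCs *Lifr* was no longer called (−0.26, 0.0810) whereas *Pim3* was (0.28, 0.0436).

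**Figure D2:**
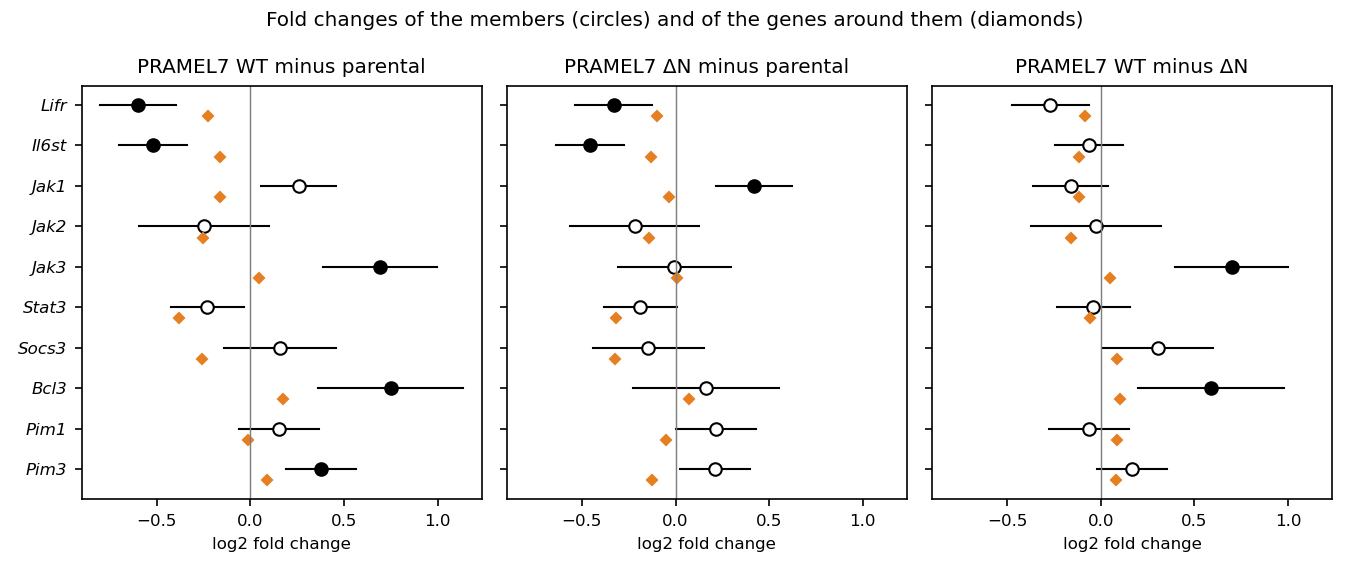
Log2 fold changes of the 10 members in the 3 comparisons, with bars for the 95% confidence interval. Filled circles mark an adjusted p under 0.05, and diamonds give the median of the other genes tested within 2 Mb. *Lifr* and *Il6st* are filled on the left of 0 in both comparisons with parental ESCs, *Jak3* and *Bcl3* on the right in both comparisons of PRAMEL7 WT ESCs, and the diamonds around *Stat3* and *Socs3* lie at −0.38 to −0.26 in the comparisons with parental ESCs.

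Both receptor genes were lower in both derived lines. *Lifr* (chr15:7090614-7197489, plus strand), which encodes the chain that binds LIF, was at 129.9 and 120.0 CPM in parental ESCs, 78.4 and 85.9 in PRAMEL7 WT ESCs, and 98.0 and 100.2 in PRAMEL7 ΔN ESCs. The 3 lines did not overlap, with parental ESCs highest and PRAMEL7 WT ESCs lowest. The log2 fold change was −0.60 ± 0.09 (SE, adjusted p = 0.00264) in PRAMEL7 WT ESCs and −0.33 ± 0.09 (adjusted p = 0.0321) in PRAMEL7 ΔN ESCs, the latter losing its call without either ΔN library (adjusted p = 0.176 and 0.132). The difference between the derived lines, −0.27 with a 95% interval of −0.47 to −0.06, missed the threshold (adjusted p = 0.0651).

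*Il6st* (chr13:112464070-112510086, plus strand), the gene of the shared signalling chain gp130, was at 184.5 and 191.0 CPM in parental ESCs, 132.6 and 128.8 in PRAMEL7 WT ESCs, and 133.8 and 139.5 in PRAMEL7 ΔN ESCs. Both derived lines lay below parental ESCs and close to each other. *Il6st* fell by 0.52 ± 0.08 (adjusted p = 0.00294) on the log2 scale in PRAMEL7 WT ESCs and by 0.46 ± 0.08 (adjusted p = 0.00485) in PRAMEL7 ΔN ESCs. These calls were lost without PRAMEL7 WT library 2 (adjusted p = 0.0510) and without PRAMEL7 ΔN library 1 (0.0607). The log2 difference between the derived lines was −0.06, with an interval of −0.25 to 0.12. Per exon kilobase, the ratio of *Lifr* to *Il6st* stayed between 0.609 and 0.754 over the 6 libraries.

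The *Lifr* and *Il6st* transcripts were of low to middling GC content (44.35% and 47.4%), while those of *Jak3*, *Bcl3* and *Pim3* (61.0%, 62.65% and 61.9%) were above at least 97.4% of the genes tested. With a correction of each library for GC content and transcript length, an alternative chosen after the data were seen, *Lifr* moved to −0.31 (adjusted p = 0.0210) and *Il6st* to −0.30 (0.00996) in PRAMEL7 WT ESCs. In PRAMEL7 ΔN ESCs, *Lifr* moved to −0.21 and lost its call (0.0896), and *Il6st* to −0.34 (0.00529).

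The genes whose levels followed *Lifr* most closely over the 6 libraries, out of 9927 with a mean of at least 5 CPM, were *Stx8* (Pearson r = 0.995), *Trim37* (0.995) and *Zfyve16* (0.993). *Trim37*, for example, was at 184.0 and 167.9 CPM in parental ESCs, 98.6 and 103.6 in PRAMEL7 WT ESCs, and 123.7 and 131.0 in PRAMEL7 ΔN ESCs. *Stx8* and *Trim37* lie on chromosome 11, whose genes had median log2 fold changes of −0.36 and −0.33 in PRAMEL7 WT and PRAMEL7 ΔN ESCs. Over all genes tested these medians were −0.08 and −0.06. The part of this shift in the correlations was not tested. The 6 points come from 3 lines, so that these correlations are given as a description with no test.

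Among the kinases, *Jak3* was called higher in PRAMEL7 WT ESCs and *Jak1* in PRAMEL7 ΔN ESCs, relative to parental ESCs. *Jak1* (chr4:101152367-101265282, minus strand), a kinase that gp130 and LIFR bind, was at 58.5 and 57.4 CPM in parental ESCs, 71.9 and 67.1 in PRAMEL7 WT ESCs, and 76.9 and 78.7 in PRAMEL7 ΔN ESCs. All 4 libraries of the derived lines were above both parental ones. The log2 fold change was 0.42 ± 0.09 (adjusted p = 0.0113) in PRAMEL7 ΔN ESCs, and not called without either ΔN library (0.0776 and 0.0889). It was 0.26 ± 0.09 (adjusted p = 0.0622) in PRAMEL7 WT ESCs, and the correction for GC content and length raised it to 0.41 (0.00416). The difference of *Jak1* between the derived lines was not called (−0.16, adjusted p = 0.233). *Jak2* (chr19:29251828-29313080, plus strand), another kinase of cytokine receptors, was low throughout, at 5.78 and 5.80 CPM in parental ESCs, 4.505 and 4.95 in PRAMEL7 WT ESCs, and 4.47 and 5.23 in PRAMEL7 ΔN ESCs. Each of these values rests on 89 to 112 reads, and the log2 fold changes of −0.25 ± 0.15 and −0.22 ± 0.15 were not called (adjusted p = 0.262 and 0.363).

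*Jak3* (chr8:71676296-71690575, plus strand), known as the kinase of lymphocyte receptors that contain the common gamma chain, was at 22.3 and 29.1 CPM in parental ESCs, 40.4 and 43.2 in PRAMEL7 WT ESCs, and 26.3 and 24.5 in PRAMEL7 ΔN ESCs. PRAMEL7 WT ESCs were above every other library, and the ΔN libraries fell between the parental ones. The level was 1.63-fold higher in PRAMEL7 WT ESCs than in parental ESCs (log2 fold change 0.69 ± 0.14, adjusted p = 0.00721) and 1.65-fold higher than in PRAMEL7 ΔN ESCs (0.70 ± 0.14, adjusted p = 0.00691). Relative to parental ESCs, PRAMEL7 ΔN ESCs differed by −0.01, with an interval of −0.31 to 0.30, and the sign turned under other scalings. Both calls of PRAMEL7 WT ESCs were lost without either of its libraries (adjusted p = 0.0578 and 0.0786 against parental ESCs, 0.0562 and 0.0841 against ΔN), and the second also without ΔN library 2 (0.0780). With the correction for GC content and length the log2 values were 0.51 (0.00328) and 0.46 (0.00499). The exons of *Jak3* share 404 bases with *Insl3* on the same strand, and *Insl3* had at most 1 read in any library. How reads in the shared bases were assigned is not known, so that this count does not show the part of *Insl3* in them.

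**Figure D3:**
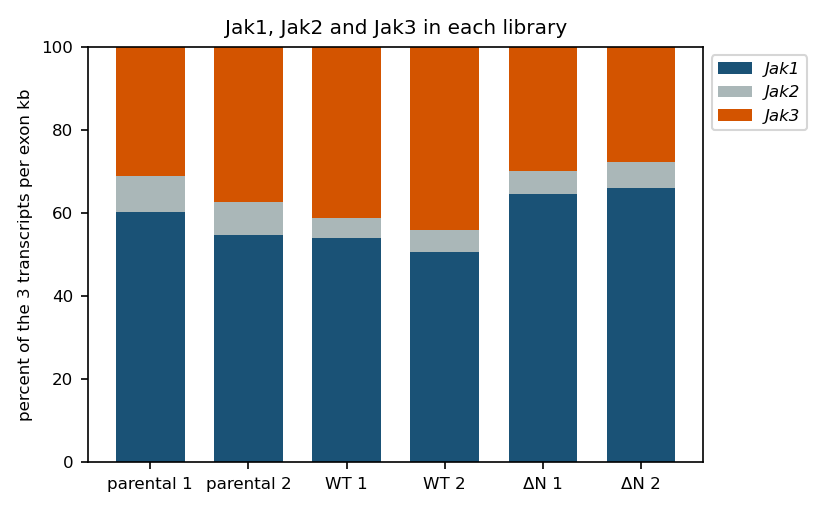
Share of *Jak1*, *Jak2* and *Jak3* in the sum of their levels per exon kilobase (stacked bars, percent) in each of the 6 libraries. The *Jak3* share is 41.1% and 44.0% in PRAMEL7 WT ESCs and 27.7% to 37.4% in the other libraries.

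Per exon kilobase, *Jak3* made up 31.1% and 37.4% of the RNA of the 3 kinases in parental ESCs, 41.1% and 44.0% in PRAMEL7 WT ESCs, and 29.9% and 27.7% in PRAMEL7 ΔN ESCs. *Jak1* made up more than *Jak3* in each library, with shares of 50.6% to 66.0%. Of 8 receptor genes whose products work with JAK3, only *Il2rg* and *Il4ra* passed the filter on low values. *Il2rg*, the common gamma chain, was at 1.32 to 2.22 CPM over the libraries, and *Il7r* and *Il21r* had 0 reads in all 6. *Il4ra* was at 3.61 and 3.36 CPM in parental ESCs, 1.87 and 1.16 in PRAMEL7 WT ESCs, and 2.31 and 2.80 in PRAMEL7 ΔN ESCs. It was lower in PRAMEL7 WT ESCs than in parental ESCs (log2 fold change −0.85 ± 0.19, adjusted p = 0.0129), beside 16.3% of all genes tested. The *Il4ra* values rest on 21 to 70 reads, and the call was lost with no filter on low values (limma adjusted p = 0.0685).

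*Stat3* (chr11:100885098-100939540, minus strand), the transcription factor that LIF activates, was at 280.4 and 251.0 CPM in parental ESCs, 225.4 and 226.8 in PRAMEL7 WT ESCs, and 239.6 and 225.9 in PRAMEL7 ΔN ESCs. All libraries of the derived lines were below the parental ones, but neither difference was called, at −0.23 ± 0.09 (adjusted p = 0.0799) and −0.19 ± 0.09 (adjusted p = 0.164). Leaving out 1 library gave log2 fold changes of −0.31 to −0.15 in PRAMEL7 WT ESCs and −0.27 to −0.11 in PRAMEL7 ΔN ESCs. *Stat3* lies in a stretch where many genes were lower, with 45 of the 94 other genes tested within 2 Mb called lower and 3 higher in PRAMEL7 WT ESCs. These 94 genes had a median log2 fold change of −0.38 in PRAMEL7 WT ESCs and −0.32 in PRAMEL7 ΔN ESCs, and all other genes tested on chromosome 11 had medians of −0.36 and −0.33, against −0.08 and −0.06 over all genes. The log2 fold changes of *Stat3* lay above the medians of its chromosome, at percentiles 67.7 and 70.9 of its genes. The 72 exon bases that *Stat3* shares with *Stat5a* lie on opposite strands, and the library kit does not mark strand.

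*Socs3* (chr11:117966079-117970047, minus strand), the feedback inhibitor whose window before the RefSeq start holds the motif match above, was at 175.0 and 237.9 CPM in parental ESCs, 222.9 and 232.6 in PRAMEL7 WT ESCs, and 194.6 and 174.7 in PRAMEL7 ΔN ESCs. The parental libraries spanned nearly all the other values, and PRAMEL7 WT ESCs were above PRAMEL7 ΔN ESCs. No difference was called, with 0.16 ± 0.13 (adjusted p = 0.407), −0.15 ± 0.13 (0.485) and, between the derived lines, 0.30 ± 0.13 (0.135). The direction relative to parental ESCs depended on which parental library was kept. For PRAMEL7 WT ESCs the log2 fold change was −0.06 without library 1 and 0.38 without library 2, and for PRAMEL7 ΔN ESCs −0.37 and 0.07.

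*Bcl3* (chr7:19808462-19822770, minus strand), which encodes a nuclear IκB protein, was at 30.5 and 47.6 CPM in parental ESCs, 66.5 and 63.1 in PRAMEL7 WT ESCs, and 44.7 and 40.9 in PRAMEL7 ΔN ESCs. As for *Jak3*, PRAMEL7 WT ESCs were above every other library and the ΔN libraries lay between the parental ones. *Bcl3* rose 1.66-fold relative to parental ESCs (log2 fold change 0.75 ± 0.17, adjusted p = 0.0142) and was 1.51-fold higher than in PRAMEL7 ΔN ESCs (0.59 ± 0.17, adjusted p = 0.0405). The first value depended on the parental library, at 0.44 without library 1 and 1.06 without library 2, and its call was lost without either library of PRAMEL7 WT ESCs (adjusted p = 0.107 and 0.0835). The second call was lost without any 1 of the 4 libraries (adjusted p = 0.114 to 0.236). With the correction for GC content and length the values were 0.49 (0.0129) and 0.28 (0.108). Both calls of *Bcl3* were also lost with no filter on low values and with unconverted RPKM, and the second with a replicate block. An antisense gene, *Gm16175*, shares 161 exon bases with *Bcl3*, and their reads there cannot be told apart.

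*Pim1* and *Pim3* encode closely related survival kinases that act without an activation step. *Pim3* (chr15:88862186-88865726, plus strand) was at 188.1 and 204.1 CPM in parental ESCs, 258.6 and 251.4 in PRAMEL7 WT ESCs, and 230.9 and 222.8 in PRAMEL7 ΔN ESCs. The lines did not overlap, with PRAMEL7 WT ESCs highest. The log2 fold change was 0.38 ± 0.08 (adjusted p = 0.0114) in PRAMEL7 WT ESCs and 0.21 ± 0.08 (0.108) in PRAMEL7 ΔN ESCs, with 0.17 ± 0.08 (0.178) between them. The call was lost without either library of PRAMEL7 WT ESCs (adjusted p = 0.116 and 0.0889) and with the correction for GC content and length, which gave 0.15 (0.239). *Pim1* (chr17:29490753-29496112, plus strand) was at 60.1 and 65.1 CPM in parental ESCs, 72.5 and 66.9 in PRAMEL7 WT ESCs, and 71.0 and 74.6 in PRAMEL7 ΔN ESCs. The 4 libraries of the derived lines were above the parental ones by a small margin, and neither log2 fold change, 0.15 ± 0.10 (adjusted p = 0.257) and 0.22 ± 0.10 (0.146), was called. The antisense gene *Gm26885* shares 488 exon bases with *Pim1*.

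The libraries of PRAMEL7 WT ESCs did not overlap the parental ones for 5 members that were higher and 4 that were lower, beside 24.3% and 40.0% of all genes tested. For PRAMEL7 ΔN ESCs this held for 3 and 4 members, beside 21.6% and 35.4% of genes, and between the derived lines for 4 higher and 3 lower in PRAMEL7 WT ESCs, beside 33.2% and 35.6%. The median log2 fold change of the 10 members was 0.16 in PRAMEL7 WT ESCs and −0.08 in PRAMEL7 ΔN ESCs, beside −0.08 and −0.06 over all genes tested. With a fold limit of 0.58 on the log2 scale, 2 members (*Jak3* and *Bcl3*) were higher and 1 (*Lifr*) lower in PRAMEL7 WT ESCs, beside 4.07% and 8.41% of all genes. In PRAMEL7 ΔN ESCs, where the members' limma log2 fold changes ran from −0.46 to 0.42, 0 passed that limit in either direction at an adjusted or an unadjusted p, beside 2.87% and 8.41% of all genes. *Jak3* and *Bcl3* also passed it between the derived lines, beside 6.63% of genes higher and 4.72% lower in PRAMEL7 WT ESCs.

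The wider pathway was read from 39 further genes, of which 33 passed the filter on low values. In PRAMEL7 WT ESCs 4 were higher and 2 lower than in parental ESCs, beside 8.71% and 16.3% of all genes tested. Of the same genes, 7 were higher and 6 lower in PRAMEL7 ΔN ESCs, beside 6.25% and 13.6% of all genes. The direct comparison put 4 higher and 4 lower in PRAMEL7 WT than in PRAMEL7 ΔN ESCs, beside 10.9% and 9.44%. With no filter on low values these counts dropped to 2 and 1, 4 and 3, and 2 and 2. The counts over all genes dropped as well. In the same order they were 621 and 1275, 497 and 1198, and 812 and 615 of 24916 genes. With the filter they were 1125 and 2109, 807 and 1759, and 1409 and 1219 of 12914. Scaling by median ratios gave 7 higher and 1 lower in PRAMEL7 WT ESCs, where *Pias4*, *Gab1* and *Shc1* were called higher and *Grb2* was no longer called. The same scaling left 2 lower in PRAMEL7 ΔN ESCs, *Stat5a* and *Stat5b*, and ended the calls of *Socs1* (adjusted p = 0.0504), *Ptpn1* (0.128), *Grb2* (0.0774) and *Gab1* (0.0737).

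**Figure D4:**
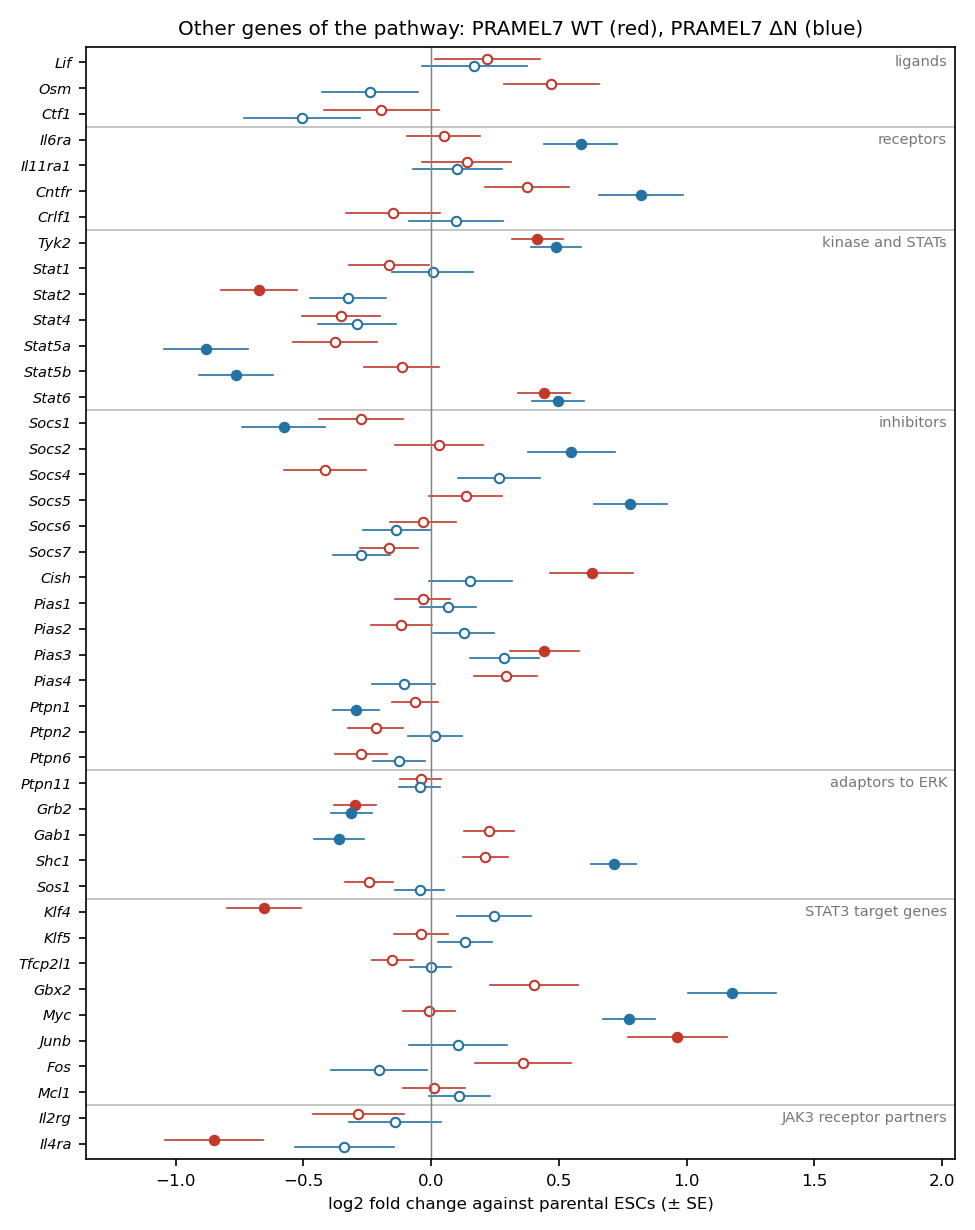
Log2 fold changes against parental ESCs of the other pathway genes that passed the filter on low values, in PRAMEL7 WT ESCs (red) and PRAMEL7 ΔN ESCs (blue), with bars for the standard error. Filled points have an adjusted p under 0.05. The genes are set out by role, and each role with more than 4 genes holds filled points on both sides of 0.

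Of the 8 ligand genes 3 were tested, and limma called 0 against parental ESCs. At an unadjusted p under 0.05 the count was 1, *Osm* in PRAMEL7 WT ESCs. *Lif* itself was at 2.12 to 3.47 CPM over the libraries. *Osm*, the gene of a related cytokine, was at 0.62 and 0.98 CPM in parental ESCs, 1.47 and 1.49 in PRAMEL7 WT ESCs, and 0.45 and 0.58 in PRAMEL7 ΔN ESCs, and differed between the derived lines (0.71 ± 0.19, adjusted p = 0.0263).

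Of the 5 other receptor genes 4 were tested, and 2 were higher in PRAMEL7 ΔN ESCs, beside 6.25% of all genes. *Il6ra*, the chain that binds interleukin-6, was at 10.0 and 8.30 CPM in parental ESCs, 9.47 in both libraries of PRAMEL7 WT ESCs, and 14.7 and 13.7 in PRAMEL7 ΔN ESCs (log2 fold change 0.59 ± 0.14, adjusted p = 0.0190). It was also lower in PRAMEL7 WT ESCs than in PRAMEL7 ΔN ESCs (−0.54 ± 0.14, adjusted p = 0.0270). *Cntfr*, the receptor chain for ciliary neurotrophic factor, rose by 0.82 ± 0.16 in PRAMEL7 ΔN ESCs (adjusted p = 0.00815) from 1.91 and 1.63 to 3.71 and 4.06 CPM. With no filter on low values, *Il6ra* and *Cntfr* lost their calls in PRAMEL7 ΔN ESCs (limma adjusted p = 0.0562 and 0.0530). The *Il6ra* call between the derived lines was lost there too (0.0770). The receptor gene left untested, *Osmr*, had at most 0.26 CPM.

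Of the kinase *Tyk2* and 6 other STAT genes, 2 were higher and 1 lower in PRAMEL7 WT ESCs (8.71% and 16.3% of all genes), and 2 were higher and 2 lower in PRAMEL7 ΔN ESCs (6.25% and 13.6%). *Tyk2*, the fourth kinase of the JAK family, rose by 0.42 ± 0.10 (adjusted p = 0.0160) and 0.49 ± 0.10 (0.00865), from 45.1 and 48.5 CPM in parental ESCs to between 62.0 and 70.0 in the derived lines. *Stat6*, which interleukin-4 activates, rose in both, by 0.44 ± 0.10 (0.0141) and 0.50 ± 0.10 (0.00903). *Stat2*, a factor of the interferon response, fell by 0.67 ± 0.15 (0.0118) in PRAMEL7 WT ESCs, from 40.6 and 57.6 CPM to 30.4 and 29.4. *Stat5a* and *Stat5b*, near-identical factors that lie beside *Stat3* on chromosome 11, were lower in PRAMEL7 ΔN ESCs. *Stat5a* went from 16.8 and 22.8 CPM in parental ESCs to 10.4 and 9.92 (−0.88 ± 0.16, adjusted p = 0.00573), and *Stat5b* from 20.9 and 27.98 to 14.1 and 13.6 (−0.76 ± 0.15, adjusted p = 0.00664), both below the chromosome's median of −0.33. *Stat5b* was at 22.7 and 21.8 CPM in PRAMEL7 WT ESCs, above PRAMEL7 ΔN ESCs (0.65 ± 0.15, adjusted p = 0.0142). Reads that match both *Stat5a* and *Stat5b* make their separate levels uncertain. Unconverted RPKM ended the calls of *Tyk2* and *Stat2* in PRAMEL7 WT ESCs and of *Stat5a* and *Stat5b* in PRAMEL7 ΔN ESCs. It also ended that of *Stat5b* between the derived lines. The *Stat2* call in PRAMEL7 WT ESCs and the *Stat5b* call between the derived lines were lost with no filter too.

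Of 14 inhibitor genes, 2 were higher and 0 lower in PRAMEL7 WT ESCs by limma (8.71% and 16.3% of all genes), with 2 lower at an unadjusted p under 0.05. In PRAMEL7 ΔN ESCs 2 were higher and 2 lower (6.25% and 13.6%). *Cish*, a SOCS family gene known as a STAT5 target, rose in PRAMEL7 WT ESCs by 0.63 ± 0.16 (adjusted p = 0.0216), from 3.61 and 4.72 CPM to 6.88 and 6.99. *Pias3*, an inhibitor that binds STAT3, rose there by 0.44 ± 0.14 (0.0404). In PRAMEL7 ΔN ESCs, *Socs5* rose by 0.78 ± 0.14 (0.00534), from 10.4 and 10.6 CPM to 19.5 and 17.99, and *Socs2* by 0.55 ± 0.17 (0.0499). *Socs1*, a JAK inhibitor, fell by 0.58 ± 0.16 (0.0349) and the phosphatase gene *Ptpn1* by 0.29 ± 0.09 (0.0471). The calls of *Pias3*, *Socs1*, *Socs2* and *Ptpn1* were each lost with no filter, with a replicate block and with only the compared lines. Quantile normalization also ended those of *Socs1* and *Ptpn1*, voom that of *Ptpn1*, and pseudocounts of 0.1 and 5 that of *Socs2*. The call of *Cish* was lost with no filter. Between the derived lines, *Socs4* (−0.68 ± 0.16, adjusted p = 0.0165) and *Socs5* (−0.64 ± 0.14, 0.0127) were lower and *Pias4* (0.40 ± 0.12, 0.0469) higher in PRAMEL7 WT ESCs. Unconverted RPKM ended all of these calls. No filter and the correction for GC content and length each ended those of *Socs4* and *Pias4*.

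Of the 5 adaptor genes that link gp130 to the ERK kinases, 1 was lower in PRAMEL7 WT ESCs (16.3% of all genes), and 1 was higher and 2 lower in PRAMEL7 ΔN ESCs (6.25% and 13.6%). *Grb2*, on chromosome 11, fell by 0.30 ± 0.08 (adjusted p = 0.0267) and 0.31 ± 0.08 (0.0253), close to the chromosome's medians of −0.36 and −0.33. *Shc1* rose in PRAMEL7 ΔN ESCs by 0.71 ± 0.09 (0.000846), from 107.9 and 114.1 CPM to 190.2 and 175.4. *Gab1* was at 386.8 and 324.8 CPM in parental ESCs, 423.5 and 406.1 in PRAMEL7 WT ESCs, and 274.6 and 276.9 in PRAMEL7 ΔN ESCs. It was lower in PRAMEL7 ΔN ESCs than in parental ESCs (−0.36 ± 0.10, adjusted p = 0.0278) and than in PRAMEL7 WT ESCs (0.59 ± 0.10, adjusted p = 0.00318, as WT minus ΔN). The first of these calls was lost with no filter, median ratios, only the compared lines, unconverted RPKM and the correction for GC content and length. Both *Grb2* calls were lost with median ratios, only the compared lines and unconverted RPKM.

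Of 8 further STAT3 target genes, 1 was higher and 1 lower in PRAMEL7 WT ESCs, and 2 were higher and 0 lower in PRAMEL7 ΔN ESCs, by limma, with 0 lower also at an unadjusted p under 0.05. The shares of all genes were 8.71% and 16.3% in PRAMEL7 WT ESCs and 6.25% and 13.6% in PRAMEL7 ΔN ESCs. In PRAMEL7 WT relative to PRAMEL7 ΔN ESCs, 1 was higher and 3 were lower, beside 10.9% and 9.44% of all genes. *Klf4*, a pluripotency factor, was at 253.2 and 362.3 CPM in parental ESCs, 182.3 and 202.1 in PRAMEL7 WT ESCs, and 354.1 and 364.3 in PRAMEL7 ΔN ESCs. PRAMEL7 WT ESCs were below every other library, by −0.66 ± 0.14 (adjusted p = 0.0118) relative to parental ESCs and −0.90 ± 0.14 (0.00284) relative to PRAMEL7 ΔN ESCs. With no filter on low values the first of these calls was lost, leaving 0 lower. With unconverted RPKM both *Klf4* calls were lost (limma adjusted p = 0.0875 and 0.0516).

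*Myc*, a growth regulator, was at 46.2 and 40.5 CPM in parental ESCs, 43.6 and 42.4 in PRAMEL7 WT ESCs, and 76.3 and 73.1 in PRAMEL7 ΔN ESCs. *Gbx2*, a homeobox gene that supports self-renewal, was at 12.3 and 8.62 CPM, 12.8 and 15.2, and 23.3 and 26.0 in the same order. Both rose in PRAMEL7 ΔN ESCs, *Myc* by 0.77 ± 0.10 (adjusted p = 0.00109) and *Gbx2* by 1.18 ± 0.17 (0.00193), and both differed between the derived lines, each with −0.78 (adjusted p = 0.000956 and 0.0129). *Junb*, an AP-1 subunit gene, showed another pattern. It was at 12.3 and 16.5 CPM in parental ESCs, 24.0 and 34.4 in PRAMEL7 WT ESCs, and 16.7 and 14.1 in PRAMEL7 ΔN ESCs, 2.03-fold higher in PRAMEL7 WT ESCs than in parental ESCs (0.96 ± 0.19, adjusted p = 0.00783). The call of *Junb* between the derived lines (0.86 ± 0.19, adjusted p = 0.0136) was lost with no filter. Unconverted RPKM ended both calls of *Junb*. The *Gbx2* call between the derived lines was lost with no filter (limma adjusted p = 0.0593) and with unconverted RPKM (0.0700). *Tfcp2l1*, through which STAT3 acts in ESC self-renewal, was at 994 to 1142 CPM over the libraries, with log2 fold changes of −0.15 ± 0.08 and 0.00 ± 0.08 that were not called (adjusted p = 0.190 and 0.990).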

How the data were processed

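RNA of 6 libraries, from 2 dishes for each of 3 ESC lines, was used. The 6 chromatin immunoprecipitation and input samples were not analysed here. Per the study's methods, the authors filtered ribosomal reads, trimmed, mapped to mm10 and deposited RPKM per gene from their own pipeline, whereas their processing notes name Bowtie2 2.3.4.3 and Subread 1.4.6-p4. The deposited tables of the authors' own comparisons hold log2 fold changes, standard errors and p-values and were not used. The deposited RPKM values had been divided by the whole gene span, introns included. RPKM was therefore multiplied by the span in GENCODE vM21 (GRCm38) and by 1 constant, which gave CPM. Of 50978 rows, 176 with repeated or date-like names, 2796 without and 66 with several matches were left out, which kept 47940. Of the values up to 20 reads, 98.1% to 98.4% per library fell within 0.1 of a whole read, and the library totals of 18249435 to 19850295 reads follow from these steps. A gene at 100 reads is thus counted to about 10%.

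The test on log2(CPM + 1), for genes that exceeded 1 CPM in 2 or more libraries, used limma 3.58.1 in R 4.3.3 (trend, 3 lines in one fit, Benjamini-Hochberg adjustment). A fold change on this scale understates the change of low genes. The same fit was also run on simulated data as a self-test. Labels call the libraries of a line replicates from independent dishes, and p-values measure the spread between these samples. Replicates of each line differed by more than sampling noise. Members and gene lists were chosen with earlier results of these data known. The text names all members and, of the lists, genes with adjusted p under 0.05, absolute log2 fold change above 0.58 and a mean of at least 5 CPM, plus up to 4 more per list by lowest adjusted p over the 3 comparisons. For *Lifr*, the member of lowest adjusted p, it names the 3 most correlated genes. *Socs2*, *Osmr*, *Il7r* and *Il21r* lie outside this rule and were named after their values were seen. Upstream sequences came from RefSeq (GRCm38.p6), where all 10 members matched. Alternatives were pseudocounts of 0.1 and 5, no filter, median-ratio scaling, quantile normalization, a replicate block, only the compared lines, voom on whole reads, unconverted RPKM, the fold limit, leaving out each library and, chosen after the data were seen, a loess correction for GC content and length of the longest transcript. Tables were made with pandas 2.3.3 and numpy 2.4.6 under python 3.11.15, and figures with matplotlib 3.10.9.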

Additional observations from a re-analysis of the deposited data

Results flagged for a closer look

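The change relative to parental ESCs differed between the derived lines, by the limma comparison of PRAMEL7 WT ESCs with PRAMEL7 ΔN ESCs, for 2 members, *Jak3* with a log2 difference of 0.70 and *Bcl3* with 0.59. The same comparison set apart *Osm* (0.71), *Stat5b* (0.65), *Gab1* (0.59), *Pias4* (0.40) and *Junb* (0.86) as higher in PRAMEL7 WT ESCs. As lower it set apart *Il6ra* (−0.54), *Socs4* (−0.68), *Socs5* (−0.64), *Shc1* (−0.50), *Klf4* (−0.90), *Gbx2* (−0.78) and *Myc* (−0.78). The level of *Pramel7* RNA itself differed by −3.06, so that the deletion and the amount of transgene RNA cannot be told apart in these values.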

How the results depend on the processing

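Of the 8 calls of single members in the comparisons with parental ESCs, those of *Lifr*, *Il6st* and *Jak3* in PRAMEL7 WT ESCs and of *Il6st* in PRAMEL7 ΔN ESCs held under all 10 alternatives that kept every library, as did that of *Jak3* between the derived lines. In PRAMEL7 WT ESCs, *Bcl3* lost its call with no filter (0.75, adjusted p = 0.0653) and with unconverted RPKM (0.70, 0.0908), and *Pim3* with the loess correction (0.15, 0.239). *Jak1* gained one with median ratios (0.345), quantiles (0.29) and loess (0.41). In PRAMEL7 ΔN ESCs, *Lifr* lost its call with no filter (−0.33), the replicate block (−0.33), only the compared lines (−0.33), median ratios (−0.26), unconverted RPKM (−0.26) and loess (−0.21), with adjusted p of 0.0574 to 0.107. *Jak1* lost its call with unconverted RPKM (0.29), *Pim3* gained one with median ratios (0.28), and the uncalled *Jak3* turned to 0.065, 0.062 and 0.051 with median ratios, quantiles and loess. Between the derived lines, *Bcl3* lost its call with no filter (0.59), the block (0.59), unconverted RPKM (0.56) and loess (0.28). *Lifr* (−0.27) and *Socs3* (0.30) gained one with only the compared lines, and the uncalled *Il6st* (0.039), *Jak2* (0.11) and *Pim3* (−0.11) turned sign with loess. *Jak2* did not pass the filter on unconverted RPKM and has no value there. The cause of these changes was not tested.

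The fold limit left 1 member lower in PRAMEL7 WT ESCs and 0 higher and 0 lower in PRAMEL7 ΔN ESCs. In the latter, 1 rather than 2 were lower with no filter, median ratios, the block, only the compared lines, unconverted RPKM and loess, and median ratios gave 2 and unconverted RPKM 0 higher. Between the derived lines 1 rather than 2 were higher with no filter, the block, unconverted RPKM and loess, and 1 was lower with only the compared lines. Of the other pathway genes, median ratios gave 7 higher and 1 lower in PRAMEL7 WT ESCs and 2 lower in PRAMEL7 ΔN ESCs. No filter gave 2 and 1, 4 and 3, and 2 and 2, and for STAT3 targets 0 lower in PRAMEL7 WT ESCs and 0 higher between the derived lines. With no filter 24916 genes were tested. Of these, 621 were higher and 1275 lower in PRAMEL7 WT ESCs, and 497 and 1198 in PRAMEL7 ΔN ESCs. Between the derived lines, 812 were higher and 615 lower in PRAMEL7 WT ESCs.

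Leaving out 1 library left an arm with a single library that was assumed to vary like the others. Calls in these fits moved for all genes tested. They were fewer after leaving out a library of a compared derived line and more after leaving out a parental one. Without a parental library the spread came from the pairs of the derived lines alone, which stood closer together. The log2 fold changes in PRAMEL7 WT ESCs ranged for *Il6st* from −0.54 to −0.50, *Jak1* 0.21 to 0.31, *Jak3* 0.51 to 0.88, *Stat3* −0.31 to −0.15, *Socs3* −0.063 to 0.38, *Bcl3* 0.44 to 1.06 and *Pim3* 0.32 to 0.44. In PRAMEL7 ΔN ESCs they ranged for *Lifr* from −0.39 to −0.27, *Il6st* −0.49 to −0.43, *Jak1* 0.40 to 0.43, *Jak3* −0.19 to 0.18, *Stat3* −0.27 to −0.11, *Socs3* −0.37 to 0.075, *Bcl3* −0.15 to 0.47 and *Pim3* 0.15 to 0.27. Between the derived lines they ranged for *Jak2* from −0.12 to 0.067, *Jak3* 0.65 to 0.75, *Stat3* −0.083 to 0.0013 and *Bcl3* 0.53 to 0.65. *Lifr* in PRAMEL7 WT ESCs was called each time, at −0.66 to −0.53.

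Replicate numbers did not pair the samples. Same-numbered libraries deviated from their line means with correlations of 0.21, −0.25 and −0.10 over genes. With the block, all genes called in PRAMEL7 WT ESCs went from 1125 and 2109 to 955 and 1774, and the members' counts changed as given above.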
